A study of Mus musculus with 194 samples.

Results

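Gene expression was compared between the amygdala (Amy) and the lateral hypothalamus (LH) of mice given acute cocaine. The comparison took every 3′ RNA-seq library labelled as acute Amy (8) or acute LH (8), 16 of the 194 libraries of the series, all from 1 sequencing run. The contrast was then read in the 16 Amy and LH libraries of repeated cocaine mice, from the same run, and in 22 Amy and LH libraries of cocaine challenge mice from 2 other runs (15 Amy and 7 LH). The mice were male C57BL/6OLAHSD animals of 6 to 7 weeks before acclimation and handling, and cocaine was injected i.p. at 20 mg/kg. Challenge mice were therefore older when sampled than acute mice. Acute mice were taken 1, 2 or 4 hr after a first injection, with cocaine-naive home cage mice as 0 hr. Repeated mice, which the labels call Chronic, were taken 1, 2 or 4 hr after the last of 5 daily injections, and their 0 hr mice were taken 24 hr after injection 4. Challenge mice were taken 1, 2 or 4 hr after a further injection that followed repeated cocaine and 21 days of abstinence, and their 0 hr mice were abstinent mice without that injection. Acute and repeated mice gave 2 libraries per structure and time. Tissue was dissected by hand from coronal slices, so each library holds every cell type of the piece taken.

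The amygdala is a set of telencephalic nuclei that attach value to cues, with glutamatergic pyramidal-like neurons in its basolateral part and GABAergic neurons in its central, intercalated and medial parts. The lateral hypothalamus belongs to the diencephalon and takes part in arousal, feeding and reward. It is known for neurons that make orexin (hypocretin, *Hcrt*) or melanin-concentrating hormone (*Pmch*), and large fiber tracts such as the medial forebrain bundle run through it.

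The labels were checked against markers of each structure. Of 12 tested genes of a lateral hypothalamus list, 11 were higher in LH and 0 in Amy. The summed level of all 14 genes of the list was 1127.7 to 1690.4 CPM (counts scaled to library size) in the Amy libraries and 11911.7 to 16377.1 CPM in the LH libraries. Of 14 tested genes of a basolateral amygdala list, 11 were higher in Amy and 0 in LH, and the 15 genes of the list summed to 1874.2 to 2311.1 CPM in Amy and 619.2 to 679.3 CPM in LH. The 2 structures did not overlap in either sum. Other amygdala lists were less one-sided. The central and intercalated list had 10 of 15 tested genes higher in Amy and 4 in LH, and the medial list 5 of 12 and 6. Library totals ran from 2810642 to 5869650 counts. LH 1 hr replicate 1 stood apart in *Oxt*, *Avp* and *Lhx5*, and results on these genes are given with and without it.

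The promoters of 4 genes are shown because these genes carry the difference described below, *Hcrt* and *Pmch* on the LH side and *Slc17a7* and *Cck* on the Amy side. Each line gives the 250 bases before the transcription start, 5′ to 3′ in the direction of the gene, from the RefSeq promoter table (GRCm38.p6). They lie at chr11:100762932-100763181 (minus strand, *Hcrt*), chr10:88090822-88091071 (plus strand, *Pmch*), chr7:45163671-45163920 (plus strand, *Slc17a7*) and chr9:121495695-121495944 (minus strand, *Cck*). Capitals mark TATAAA, the core of the TATA box, found on either strand in the 60 bases next to the start.
Hcrt: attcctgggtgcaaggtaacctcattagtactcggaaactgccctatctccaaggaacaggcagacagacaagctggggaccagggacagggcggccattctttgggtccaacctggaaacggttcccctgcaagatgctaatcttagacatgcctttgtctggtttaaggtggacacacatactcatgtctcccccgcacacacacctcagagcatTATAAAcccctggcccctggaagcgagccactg
Pmch: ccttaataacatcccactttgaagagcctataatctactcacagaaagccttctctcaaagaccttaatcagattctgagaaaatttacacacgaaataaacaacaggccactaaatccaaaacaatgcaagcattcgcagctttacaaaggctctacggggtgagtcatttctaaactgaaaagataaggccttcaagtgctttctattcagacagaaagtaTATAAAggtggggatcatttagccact
Slc17a7: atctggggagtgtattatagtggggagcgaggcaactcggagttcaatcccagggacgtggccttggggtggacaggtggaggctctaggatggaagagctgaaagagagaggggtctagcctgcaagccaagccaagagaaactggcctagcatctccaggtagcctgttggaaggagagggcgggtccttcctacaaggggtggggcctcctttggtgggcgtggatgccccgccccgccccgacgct
Cck: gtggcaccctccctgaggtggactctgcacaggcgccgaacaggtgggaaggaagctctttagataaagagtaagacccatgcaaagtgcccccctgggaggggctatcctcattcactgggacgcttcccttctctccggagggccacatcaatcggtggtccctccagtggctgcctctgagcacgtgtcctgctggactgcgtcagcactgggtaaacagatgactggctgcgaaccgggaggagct
The motif began 33 bases before the start of *Hcrt* and 27 bases before that of *Pmch*, and these letters were not in the same window of *Slc17a7*, *Cck* or, on the LH side, *Oxt*. The windows of *Slc17a7* and *Cck* held 9 CpG dinucleotides each in 250 bases, that of *Hcrt* held 5 and that of *Pmch* 3. Of 46 neuropeptide precursor genes that matched the promoter table, 13 (28.3%) held the motif, against 1259 of the 27025 genes of the table (4.66%) and 220 of the 9496 tested genes that matched it (2.32%). Of 29 telencephalic transcription factors 2 held it (6.9%), and of 25 hypothalamic factors 2 (8.0%). Of the 15 genes per direction with the largest differences, 1 of the 7 matched Amy genes and 3 of the 11 matched LH genes held it. A match describes letters and not binding.

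A large part of the transcriptome differed between the structures. Of 12042 genes tested in acute mice, 2491 (20.7%) were higher in Amy and 2482 (20.6%) in LH (41.3% together), at an adjusted p under 0.05 and a difference above 1.2-fold (edgeR quasi-likelihood test with time as a covariate, Benjamini-Hochberg adjustment). Above 2-fold, 495 genes (4.11%) were higher in Amy and 381 (3.16%) in LH. The lowest Amy library was above the highest LH library for 1428 genes (11.9%), and the reverse held for 1310 (10.9%). The median log2 fold change of all tested genes was -0.00476. Fold changes below are Amy against LH over 8 libraries per structure, and a positive log2 value means higher in Amy. In bulk tissue, fewer cells of a type and less RNA per cell cannot be told apart.

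Peptide ligands of the hypothalamus were among the largest differences. *Hcrt*, the orexin precursor, was at 271.4 to 460.7 CPM in the Amy libraries (median 332.9) and 4214.9 to 6634.8 CPM in the LH libraries (median 5689.0). The ranges were far apart, and the gene was 16-fold higher in LH (log2 fold change -4.0, SE 0.082, edgeR adjusted p = 1.34e-34). *Pmch* was at 513.1 to 838.0 CPM in Amy (median 613.8) and 6232.7 to 8665.5 CPM in LH (median 7303.0), 11.3-fold higher in LH (log2 fold change -3.50, SE 0.068, edgeR adjusted p = 2.55e-35). *Oxt* (oxytocin), a hormone of magnocellular neurons, was at 10.2 to 20.6 CPM in Amy (median 15.1) and 83.9 to 830.4 CPM in LH (median 135.1). *Avp* (vasopressin) was at 34.1 to 54.4 CPM in Amy (median 45.6) and 219.8 to 1525.8 CPM in LH (median 287.7). The top LH value of both belonged to LH 1 hr replicate 1, and the other 7 LH libraries stayed at 83.9 to 222.6 CPM for *Oxt* and 219.8 to 349.7 CPM for *Avp*, still above every Amy library. With that library *Oxt* was 12.9-fold and *Avp* 8.85-fold higher in LH, and without it 9.09-fold and 6.55-fold.

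**Figure D1:**
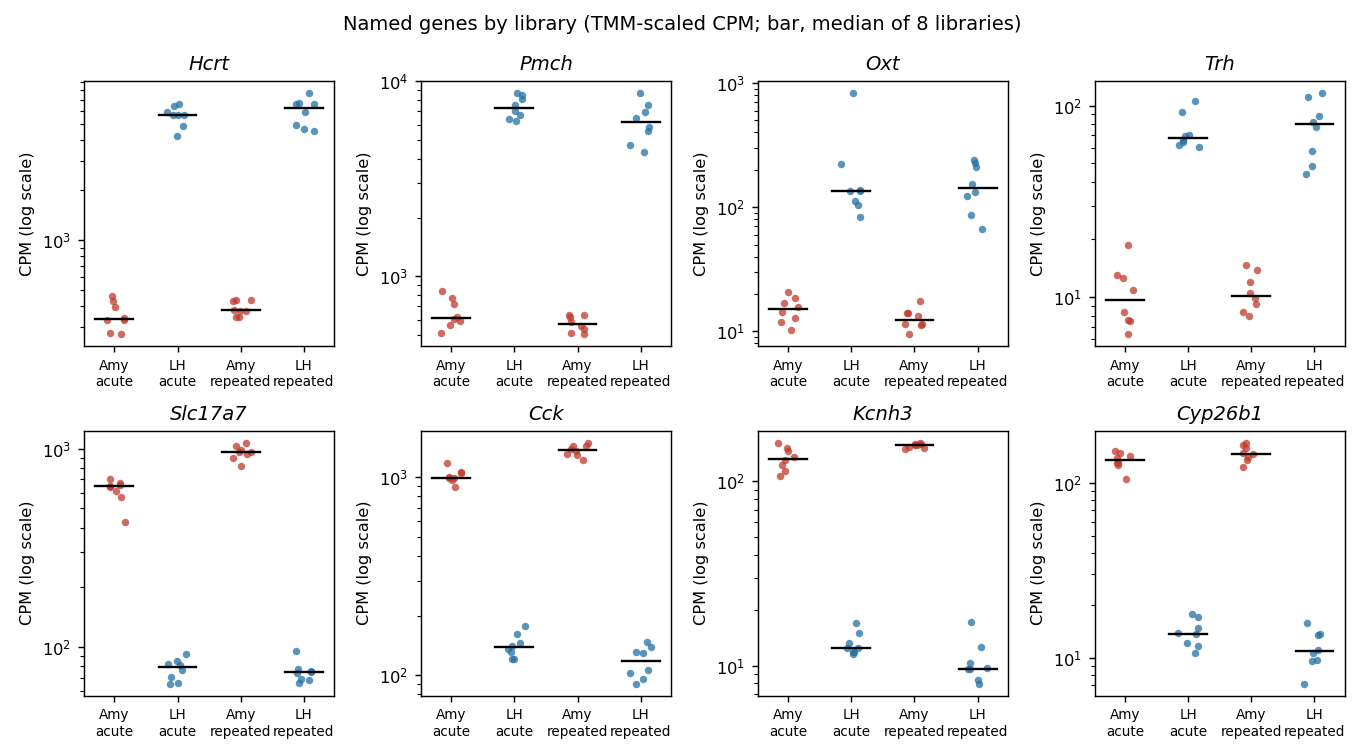
Level of 8 genes in each library (points, CPM on a log axis) of Amy and LH in acute and repeated cocaine mice, with the median of 8 libraries as a bar. Amy and LH libraries do not overlap for any of the 8 genes, and the high acute LH library of *Oxt* stands at 830.4 CPM.

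Other peptide genes were split between the structures. Of 57 neuropeptide precursor genes, 35 were abundant enough to test, of which 17 were higher in LH and 10 in Amy (median log2 fold change -0.12). *Trh* (thyrotropin-releasing hormone) was at 6.41 to 18.8 CPM in Amy and 60.9 to 105.7 CPM in LH (7.09-fold). *Cartpt* (CART peptide) was 4.1-fold, *Gal* (galanin) 3.97-fold, *Calca* (calcitonin gene-related peptide) 4.29-fold and *Ghrh* (growth hormone-releasing hormone) 3.88-fold higher in LH. *Cck* (cholecystokinin) was at 895.4 to 1174.9 CPM in Amy (median 996.6) and 120.4 to 176.1 CPM in LH (median 138.0), and was 7.23-fold higher in Amy (log2 fold change 2.85, SE 0.054, edgeR adjusted p = 2.55e-35). *Npy* (neuropeptide Y) was at 224.3 to 262.4 CPM in Amy and 44.4 to 62.4 CPM in LH (4.64-fold), again with no overlap. *Grp* (gastrin-releasing peptide, 6.86-fold), *Cort* (cortistatin, 5.88-fold), *Vip* (4.16-fold), *Ucn3* (urocortin 3, 3.05-fold), *Penk* (enkephalin, 2.89-fold), *Sst* (somatostatin, 1.91-fold) and *Crh* (corticotropin-releasing hormone, 1.74-fold) were also higher in Amy. *Nts* (neurotensin) differed by less, with means of 79.2 CPM in Amy and 99.3 CPM in LH. *Pdyn* (dynorphin), at 74 and 67.3 CPM, did not pass the test.

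Receptors for these peptides did not share 1 direction. Of 36 tested peptide receptor genes, 13 were higher in Amy and 12 in LH. The orexin receptors were higher in LH, *Hcrtr1* with means of 10.9 CPM against 7.45 CPM in Amy and *Hcrtr2* with 7.41 against 2.64 CPM. *Mchr1*, the receptor for melanin-concentrating hormone, was higher in Amy (22.3 against 15.3 CPM). The cholecystokinin receptors were divided: *Cckbr* was higher in Amy (52.3 against 19.2 CPM) and *Cckar* in LH (8.49 against 1.38 CPM). Receptors for VIP (*Vipr1*, log2 fold change 2.60), neuropeptide S (*Npsr1*, 2.09), somatostatin (*Sstr2*, 1.62) and melanocortin (*Mc4r*, 1.12) were higher in Amy. Those for vasopressin (*Avpr1a*, log2 fold change -2.56), calcitonin (*Calcr*, -1.57) and neurokinin B (*Tacr3*, -1.45) were higher in LH. Under a stricter filter on low counts 21 receptors were tested and 7 were higher in LH, and in the 0 hr mice alone 8 of 37 were higher in Amy.

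The 15 LH genes with the largest differences, chosen like the 15 Amy genes among those without overlap, also held transcription factors and synaptic genes. *Ebf3* (10.5-fold), *Uncx* (7.23-fold) and the LIM homeobox gene *Lhx5* (9.3-fold, or 8.09-fold without LH 1 hr replicate 1) are transcription factors. *Cbln1*, a secreted synapse organizer, was at 123.9 CPM ± 18.1 (SD) in LH and 14.9 CPM ± 3.43 in Amy (8.43-fold). *Glra1*, a glycine receptor subunit, was 6.56-fold higher, *Pgr15l*, an orphan receptor, 7.79-fold, and *Klk6*, a protease of oligodendrocytes, 6.47-fold.

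A pair of LH genes is uncertain. *Mup6* (10.3 CPM in LH and 0.642 CPM in Amy) belongs to a family of near-identical urinary protein genes. *Parpbp* (61.1 and 4.22 CPM, 14.7-fold) lies at chr10:88091432-88146941 on the minus strand and overlaps *Pmch*, at chr10:88091072-88092375 on the plus strand, by 944 bases. The *Parpbp* level was 0.444% to 0.787% of that of *Pmch* in the acute Amy libraries and 0.636% to 1.07% in the acute LH libraries. Strand use in counting is not given in the sources used here, so reads from this pair cannot be told apart.

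The 15 Amy genes with the largest differences held ion channels, receptors and postsynaptic genes of forebrain neurons. *Slc17a7*, the vesicular glutamate transporter of cortical-type neurons, was at 429.2 to 703.6 CPM in Amy (median 644.7) and 65.5 to 92.5 CPM in LH (median 79.3), a 7.92-fold difference (log2 fold change 2.99, SE 0.071, edgeR adjusted p = 2.33e-32). *Kcnh3*, a voltage-gated potassium channel, was at 106.8 to 161.7 CPM in Amy and 11.6 to 17.1 CPM in LH (log2 fold change 3.33). *Kcng1*, a modulatory potassium channel subunit, was at 53.2 to 79.2 and 5.28 to 10.7 CPM (9.33-fold). None of these ranges overlapped, which the choice of the 15 genes required. *Cyp26b1*, which degrades retinoic acid, was at 106.0 to 152.1 CPM in Amy and 10.7 to 17.7 CPM in LH (9.7-fold). *Mas1*, a receptor of the angiotensin system, had the largest fold of the group at 11.3-fold, from 19 CPM ± 4.15 (SD) in Amy and 1.69 CPM ± 0.934 in LH. The others were the inward rectifier *Kcnj4* (8.68-fold), the adenosine receptor *Adora2a* (8.4-fold), the muscarinic receptor *Chrm1* (6.98-fold), the postsynaptic protein gene *Ddn* (7.09-fold), the Wnt agonist *Rspo2* (7.48-fold), *Spink8* (9.9-fold), *Zfp831* (8.92-fold), *Gm19410* (7.75-fold) and *Ankrd63* (7.48-fold), with *Cck* as given above.

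Factors that pattern the forebrain followed the compartment they are known from, with few exceptions. Of 22 tested hypothalamic factors, 19 were higher in LH and 3 in Amy (median log2 fold change -1.78). *Hmx2* and *Bsx*, homeobox factors of the hypothalamus, were at 0 to 0.883 and 0 to 0.697 CPM in Amy and at 5.51 to 9.74 and 3.17 to 6.13 CPM in LH. *Otp* was at 8.14 CPM in Amy and 36 CPM in LH, and *Sim1* at 0.781 and 6.97 CPM. The members higher in Amy included *Six3* (log2 fold change 1.02) and *Lhx8* (1.25), which the ventral telencephalon is also known to use. Under a stricter filter 13 of these factors were tested and 11 were higher in LH. Of 33 tested telencephalic factors, 27 were higher in Amy and 2 in LH (median log2 fold change 1.35). *Neurod6*, a factor of pyramidal neurons, had means of 65 CPM in Amy and 11.4 CPM in LH (5.68-fold). *Emx1* (5.82-fold) and *Sp9* (4.74-fold) were also higher in Amy, and *Tle4* (log2 fold change -0.45) and *Pou3f1* (-0.44) were the 2 higher in LH.

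**Figure D2:**
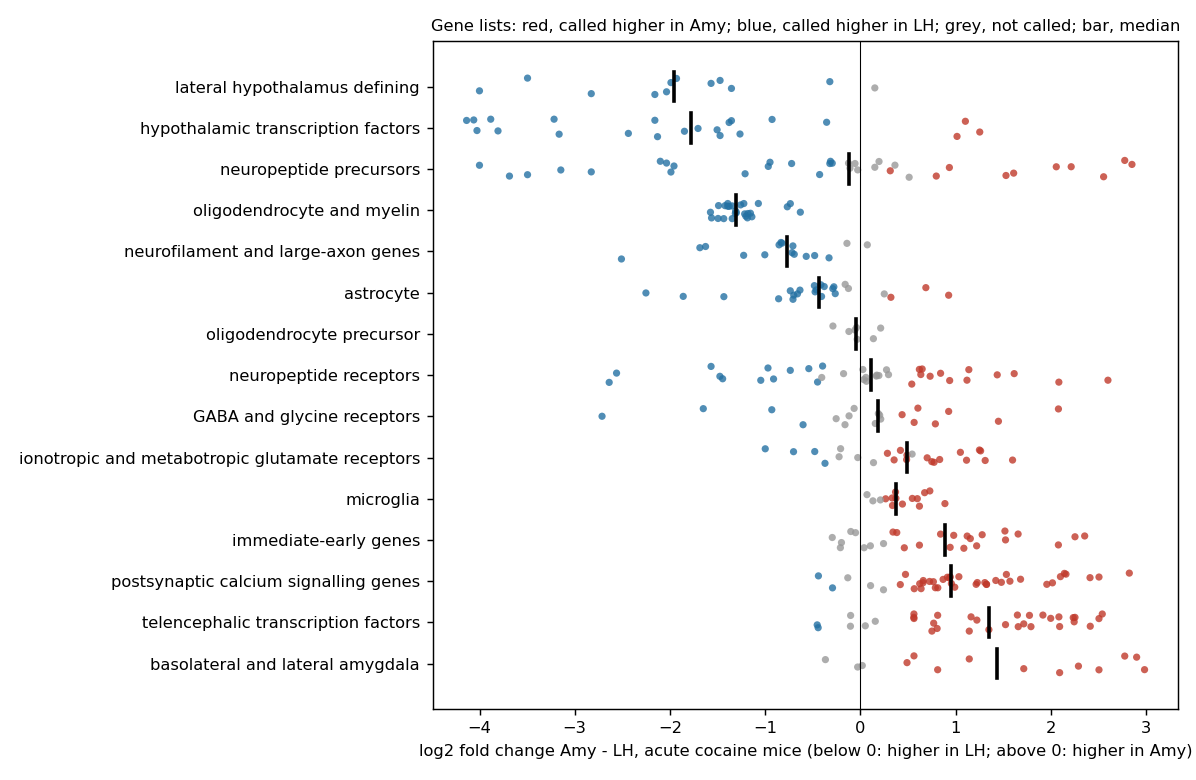
Log2 fold change (Amy minus LH, x axis) of each tested member of 15 gene lists in acute mice (points), with the list median as a bar. All 26 oligodendrocyte genes lie below 0, with a median of -1.31, and the 41 postsynaptic calcium signalling genes have a median of 0.96.

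The vesicular glutamate transporters were opposed. *Slc17a6*, the transporter of diencephalic neurons, was at 66.1 to 97 CPM in Amy and 259.0 to 332.1 CPM in LH (3.81-fold higher in LH), the reverse of *Slc17a7*. Of 15 glutamate and GABA transmitter genes, 6 were higher in Amy and 6 in LH. The synthetic enzyme *Gad1* was 1.32-fold higher in Amy, and *Gad2* (310.7 against 260.6 CPM) and the vesicular transporter *Slc32a1* (389.4 against 351.7 CPM) stayed under the 1.2-fold limit. The GABA transporter *Slc6a11* (log2 fold change -1.43) and the glycine transporter *Slc6a9* (-1.24) were higher in LH, and the glutamate transporter *Slc1a2* (0.69) in Amy. Of 11 tested monoamine and acetylcholine genes, 6 were higher in LH and 0 in Amy. *Th*, the rate-limiting enzyme of catecholamine synthesis, was at 8.83 to 14.3 CPM in Amy and 35.2 to 55.2 CPM in LH. *Ache* (acetylcholinesterase) was at 178.5 and 447.5 CPM, and *Hdc*, which makes histamine, at 1.74 to 6.74 and 3.17 to 18.5 CPM.

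Glutamate receptor genes were called in Amy more often than in LH, and the other receptor lists were divided, beside 20.7% and 20.6% of all genes tested. Of 24 tested glutamate receptor genes, 15 were higher in Amy and 4 in LH. The AMPA subunit *Gria3* (log2 fold change 1.60), the metabotropic receptors *Grm2* (1.31) and *Grm5* (1.12) and the NMDA subunits *Grin2a* (1.26) and *Grin2b* (1.25) were higher in Amy, and the NMDA subunit *Grin2d* (-1.0) in LH. Of 19 GABA and glycine receptor genes, 7 were higher in Amy, led by *Gabrd* (log2 fold change 2.08) and *Gabra4* (1.45), and 4 in LH, among them *Glra1*, *Gabrq* (-1.65) and *Gabre* (-0.93). Among 24 receptors for monoamines, adenosine, cannabinoids and acetylcholine, 13 were higher in Amy and 8 in LH. The dopamine receptor *Drd1* was at 23.2 to 34.8 CPM in Amy and 4.9 to 9.0 CPM in LH (4.51-fold), and the cannabinoid receptor *Cnr1* at 208.0 and 106.4 CPM. *Chrna4* (log2 fold change -1.21), *Chrm2* (-1.07) and *Adra2a* (-1.05) were higher in LH. In the 0 hr mice alone, 7 of these receptors were called higher in Amy and 4 in LH.

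Postsynaptic calcium signalling genes were higher in Amy as a group. Of 41 tested genes, 36 were higher in Amy and 2 in LH. *Camk2a*, a kinase of the postsynaptic density, was at 435.3 to 520.5 CPM in Amy and 98 to 125.2 CPM in LH (4.42-fold). Neurogranin (*Nrgn*), which binds calmodulin, was at 1516.9 to 1728.2 and 298.7 to 495.0 CPM (4.29-fold). The calcium-activated kinase gene *Ptk2b* was at 287.3 to 367.2 and 43.2 to 77.1 CPM (5.68-fold). The structures did not overlap for these 3 genes. The 2 genes higher in LH were *Camk2g* (log2 fold change -0.44) and *Iqsec1* (-0.29), and *Homer3*, *Calm3* and *Camkk1* did not pass.

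Immediate-early genes (IEGs), which neurons transcribe soon after activity, were called in 1 direction in acute mice. Of 26 tested, 18 were higher in Amy and 0 in LH. *Egr3* was at 77.4 to 118.8 CPM in Amy and 15.5 to 25.8 CPM in LH (4.77-fold), and *Egr4* at 27 to 68.3 and 7.33 to 9.6 CPM (5.12-fold). *Nr4a3* (log2 fold change 2.08), *Junb* (1.66) and *Arc* (1.16) were also higher in Amy. These differences were present at 0 hr, over acute and repeated mice together. The 0 hr means in Amy and LH were 88.4 and 18 CPM for *Egr3* and 31.4 and 5.46 CPM for *Egr4*. They were 46.3 and 8.58 CPM for *Nr4a3*, 109.3 and 38.7 CPM for *Junb* and 54 and 36 CPM for *Arc*. *Fos* was at 7.02 to 31 CPM in Amy and 7.89 to 36.4 CPM in LH and did not pass (log2 fold change -0.10, edgeR adjusted p = 0.552).

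Myelin and axon genes were higher in LH. All 26 oligodendrocyte and myelin genes of the list were called in that direction. Myelin basic protein (*Mbp*) was at 2368.7 to 4230.9 CPM in Amy (median 3397.0) and 7887.5 to 9662.9 CPM in LH (median 8771.5), 2.63-fold higher in LH (SE 0.062 on the log2 scale, edgeR adjusted p = 8.64e-23). The myelin glycoprotein gene *Mog* was 2.82-fold higher. The summed level of the list was 7044.7 to 11292.4 CPM in Amy and 21924.2 to 25226.9 CPM in LH, with no overlap. Of 7 tested oligodendrocyte precursor genes, 7 did not pass. Of 16 neurofilament and large-axon genes, 14 were higher in LH and 0 in Amy, among them *Sncg* (gamma-synuclein, 5.69-fold), *Vamp1* (3.22-fold) and *Nefh* (2.34-fold). *Nefl* (409.6 CPM in Amy and 451.9 CPM in LH) did not pass.

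Other glial genes went both ways. Of 24 astrocyte genes, 18 were higher in LH, such as *Itih3* (4.76-fold), *Agt* (angiotensinogen, 3.63-fold) and *Gfap* (1.81-fold), and 3 in Amy, namely *Mfge8* (0.93 on the log2 scale) and the glutamate transporters *Slc1a2* (0.69) and *Slc1a3* (0.32). Of 15 microglial genes, 12 were higher in Amy and 0 in LH, by small amounts (median log2 fold change 0.37). *Fcrls* was at 20.6 to 35.8 CPM in Amy and 12.5 to 16.9 CPM in LH, and *Cx3cr1*, the fractalkine receptor, at 46.4 to 66.5 and 31.6 to 44.7 CPM. Of 22 endothelial and mural genes, 8 were higher in LH and 0 in Amy, or 5 in LH when LH 2 hr replicate 1 was left out and 4 in the 0 hr mice alone. In the main fit 20.6% of all tested genes were higher in LH and 20.7% in Amy. The 4 erythroid genes tested were all higher in LH, and the 5 genes of the list summed to 283.1 to 395.6 CPM in Amy and 414.8 to 643.4 CPM in LH.

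Marker lists of nuclei inside and beside the dissected pieces were called mostly in 1 direction in some cases and were divided in others. Of 15 striatal projection neuron genes, 13 were higher in Amy (such as *Ppp1r1b*, log2 fold change 1.96) and 1 in LH (*Isl1*, -1.50), and their summed level was 1226.0 to 1801.7 CPM in Amy and 673.3 to 798.9 CPM in LH. Of 16 cortical and piriform genes, 10 were higher in Amy and 2 in LH (1750.9 to 2082.8 and 867.4 to 966.8 CPM summed over 17 genes). Of 15 genes of the central and intercalated amygdala, 10 were higher in Amy, and *Dlk1*, *Cartpt*, *Isl1* and *Nts* were higher in LH. The medial amygdala list was divided, with 5 of 12 higher in Amy and 6 in LH, and the LH members (*Lhx5*, *Sim1*, *Otp*, *Cartpt*, *Lhx9* and *Tac1*) are genes that the hypothalamus also uses. Of 14 thalamic genes, 9 were higher in LH (*Tcf7l2*, log2 fold change -1.20) and 1 in Amy (*Prkcd*). Of 9 tuberomammillary and mammillary genes, 8 were higher in LH, against 3 of 4 under a stricter filter and 5 of 9 in the 0 hr mice alone. Of 9 genes of the paraventricular, supraoptic and suprachiasmatic nuclei, 5 were higher in LH and 3 in Amy. The part of neighboring nuclei in the differences was not tested.

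Most of the smaller lists were called in both directions, and the ependymal list in Amy alone. These counts are small, and 20.7% of all tested genes were higher in Amy and 20.6% in LH. Of 11 arcuate and ventromedial genes, 5 were higher in LH and 2 in Amy. The 8 genes of the subthalamic nucleus and zona incerta were split 4 and 4. Of 11 hippocampal genes, 4 were higher in Amy and 3 in LH. Of 6 choroid plexus genes, 2 were higher in Amy and 3 in LH, and of 7 ependymal and tanycyte genes 4 and 0. None of the hindbrain and Hox genes was abundant enough to test.

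Most of the contrast was found again in mice that the acute comparison had not used. In repeated cocaine mice 2644 of 11971 genes (22.1%) were higher in Amy and 2548 (21.3%) in LH (43.4% together), and 600 (5.01%) and 435 (3.63%) above 2-fold. Of the genes higher in Amy in acute mice, 2064 were so again (82.9% of the acute list and 78.1% of the repeated list), and 3 were called in the opposite direction. Of the genes higher in LH, 2002 were so again (80.7% and 78.6%), and 0 were opposite. In challenge mice 2837 of 12202 genes (23.3%) were higher in Amy and 2786 (22.8%) in LH (46.1% together), and 686 (5.62%) and 490 (4.02%) above 2-fold. They shared 2035 Amy genes with acute mice (81.7% of the acute list and 71.7% of the challenge list) and 1976 LH genes (79.6% and 70.9%), and 2 genes of each list were called in the opposite direction. The 15 named LH genes were called in both sets, with no overlap between the structures in either. Of the 15 named Amy genes, 14 were called in repeated and 15 in challenge mice. The exception, *Adora2a*, was at 2.03 to 13.2 CPM in Amy and 0.632 to 2.1 CPM in LH of repeated mice and did not pass the filter on low counts. *Hcrt* was 15.2-fold higher in LH in repeated and 13.5-fold in challenge mice, *Pmch* 10.9-fold and 10.5-fold, and *Cck* was 11.7-fold and 10.2-fold higher in Amy.

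**Figure D3:**
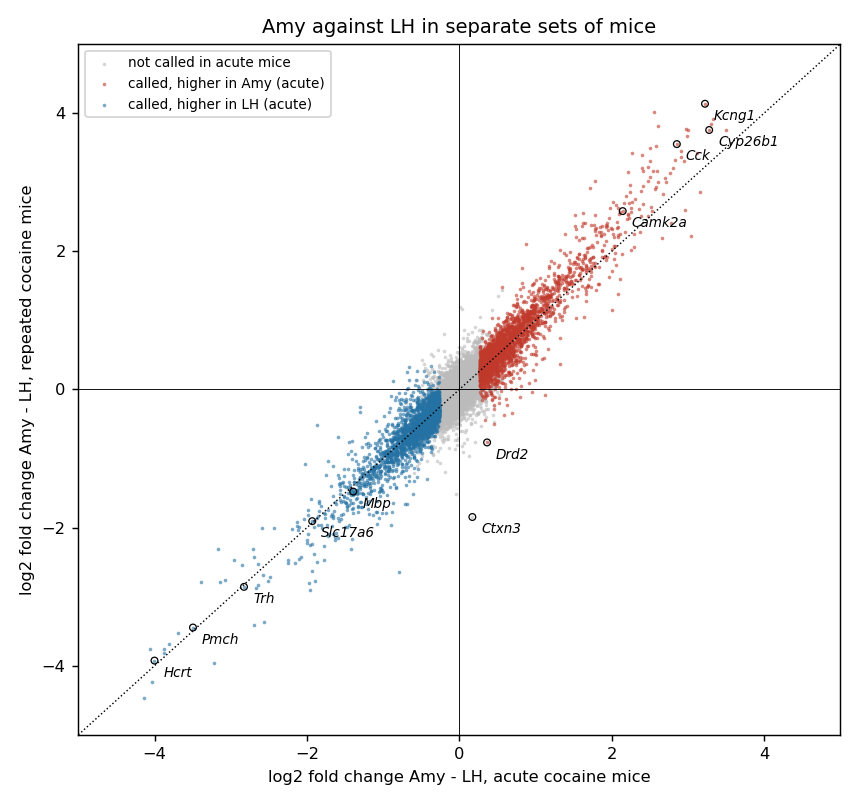
Log2 fold change (Amy minus LH) of each gene tested in both acute (x axis) and repeated cocaine mice (y axis). *Hcrt* lies at -4.0 and -3.93 and *Cck* at 2.85 and 3.55, while *Drd2* (0.36 and -0.77) and *Ctxn3* (0.17 and -1.85) change sign.

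Counts by list were close in the 3 sets for some groups and changed in others. In acute, repeated and challenge mice, 20.7%, 22.1% and 23.3% of all tested genes were higher in Amy. Higher in LH were 20.6%, 21.3% and 22.8%. Oligodendrocyte genes were higher in LH in 26, 26 and 26 of 26 cases in acute, repeated and challenge mice. Microglial genes were higher in Amy in 12, 13 and 13 of 15, and postsynaptic calcium signalling genes in 36, 37 and 38 of 41. IEGs were higher in Amy in 18 of 26, 19 of 27 and 21 of 28, and 1 was higher in LH in repeated mice (*Arl4d*, log2 fold change -0.76). Striatal genes varied more, with 13 of 15, 8 of 14 and 9 of 15 higher in Amy. Higher in LH were 1 (*Isl1*), 3 (*Isl1*, *Drd2* and *Syndig1l*) and 2 (*Isl1* and *Syndig1l*). Receptors for monoamines, adenosine, cannabinoids and acetylcholine went from 13 higher in Amy and 8 in LH in acute mice to 8 and 10 in repeated and 12 and 9 in challenge mice. Ependymal and tanycyte genes were higher in Amy in 4, 2 and 2 cases and in LH in 0, 2 and 3, of 7, 5 and 5 tested. Endothelial and mural genes were higher in LH in 8, 4 and 7 of 22. Whether these counts differ between the sets was not tested. Erythroid genes were higher in LH in 4, 3 and 0 of 4.

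Whether the difference between structures depended on cocaine experience was tested with an interaction term over the 32 acute and repeated libraries. It was called for 98 of 12041 genes (0.814%). The log2 difference, Amy minus LH, moved toward Amy after repeated cocaine for 67 (0.556%) and toward LH for 31 (0.257%). Of the 67, 55 were higher in Amy already in acute mice, 3 were higher in LH and 9 were not called. Of the 31, 7 were higher in Amy in acute mice, 10 were higher in LH and 14 were not called, and in repeated mice 1 was higher in Amy and 21 in LH. The fitted difference changed sign for 5 of the 67 and 13 of the 31. *Slc17a7* in Amy was at 429.2 to 703.6 CPM in acute and 820.5 to 1070.3 CPM in repeated mice, and in LH at 65.5 to 92.5 and 66.2 to 96.1 CPM. The Amy ranges of the 2 experiences did not overlap and the LH ranges did (interaction 0.67 on the log2 scale, SE 0.095, edgeR adjusted p = 2.92e-05). *Cck* in Amy was at 895.4 to 1174.9 CPM in acute and 1227.4 to 1495.2 CPM in repeated mice, and in LH at 120.4 to 176.1 and 90.4 to 146.2 CPM (interaction 0.68, SE 0.093, edgeR adjusted p = 2.9e-05). The LIM-only regulator *Lmo4* (interaction 0.53), *Enc1* (0.53) and neuritin (*Nrn1*, 0.54) completed the 5 with the lowest p. The mean of *Nrn1* went from 120.7 to 76.3 CPM in LH and from 150.1 to 138.4 CPM in Amy, and the gene overlaps *Fars2* on the opposite strand by 920 bases. In challenge mice these genes were higher in Amy by 12.4-fold (*Slc17a7*), 10.2-fold (*Cck*), 5.21-fold (*Lmo4*), 5.15-fold (*Enc1*) and 1.84-fold (*Nrn1*).

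Genes whose difference moved toward LH after repeated cocaine included a dopamine receptor and a peptide precursor. The log2 fold change went from 0.36 to -0.77 for *Drd2* and from 0.17 to -1.85 for *Ctxn3*, a change of sign. It went further below 0 for *Tac1* (-0.43 to -1.30), *Syt2* (-1.93 to -2.63) and *Zcchc12* (-0.42 to -0.76). *Drd2*, the dopamine receptor of indirect-pathway neurons, was at 22.9 to 34.5 CPM in acute Amy and 9.81 to 30.8 CPM in repeated Amy, where 7 of 8 libraries were at 9.81 to 18.2 CPM. In LH it was at 19.8 to 27.6 and 20.4 to 31.9 CPM (interaction -1.18, SE 0.18, edgeR adjusted p = 0.000102). *Tac1* (substance P) in Amy was at 81.4 to 99.6 CPM in acute and 45.3 to 69.9 CPM in repeated mice, with no overlap, and in LH at 98.6 to 141.9 and 96.2 to 198.3 CPM (interaction -0.88, SE 0.14, edgeR adjusted p = 0.000146). *Syt2*, a calcium sensor of synaptic vesicles (interaction -0.72), *Zcchc12* (-0.35) and *Ctxn3* (-2.16) completed the 5. *Ctxn3* was low, at 6.62 CPM ± 0.829 (SD) in acute Amy and 1.37 CPM ± 0.895 in repeated Amy, and *Syt2* overlaps *Ppp1r12b* on the opposite strand by 7936 bases. In challenge mice *Tac1* was 2.88-fold, *Syt2* 4.57-fold, *Zcchc12* 1.91-fold and *Ctxn3* 2.76-fold higher in LH, and *Drd2* did not pass (14.1 CPM in Amy and 16.7 CPM in LH).

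**Figure D4:**
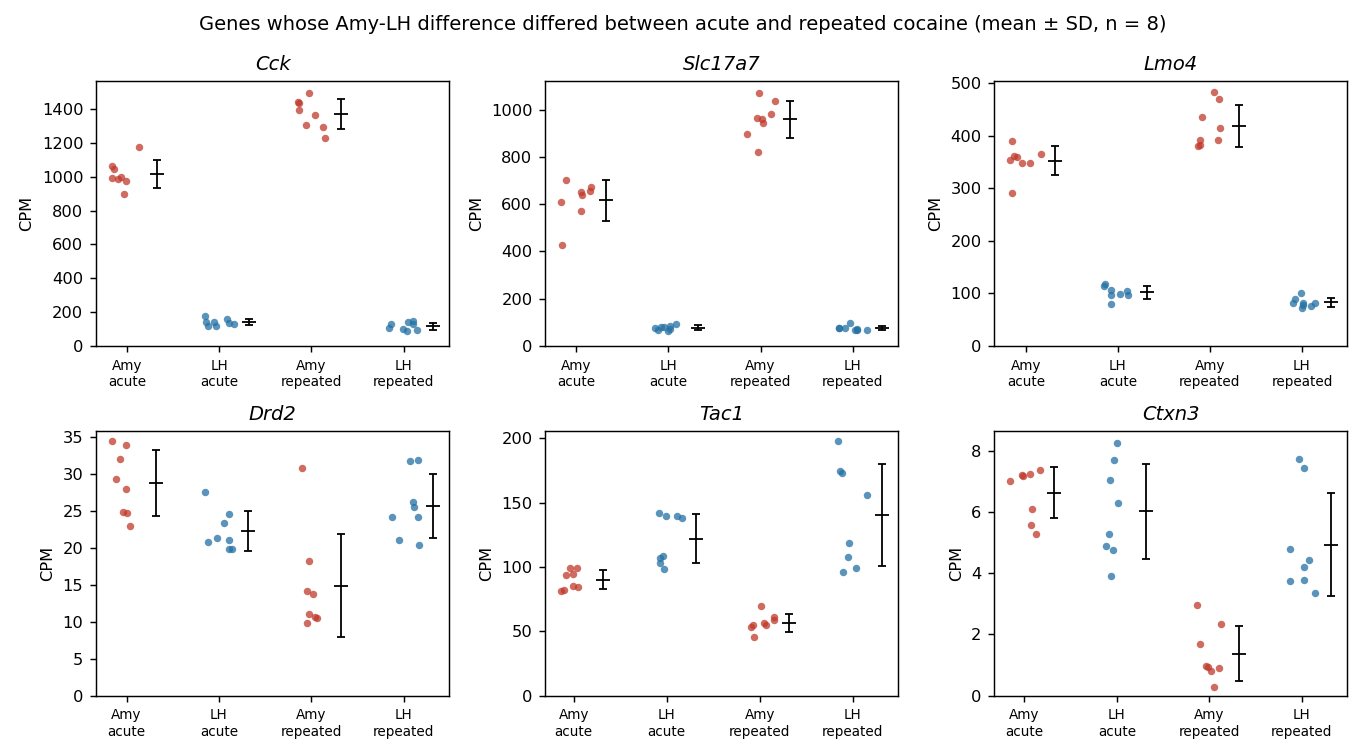
CPM of 6 genes named for the interaction in each library (points) of Amy and LH in acute and repeated mice, with mean ± SD of 8 libraries. *Slc17a7* in Amy is at 429.2 to 703.6 CPM in acute and 820.5 to 1070.3 CPM in repeated mice, and *Tac1* in Amy at 81.4 to 99.6 and 45.3 to 69.9 CPM.

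By list, 8 of 41 postsynaptic calcium signalling genes (such as *Ptk2b*, interaction 0.59) and 6 of 33 telencephalic factors (such as *Tbr1*, 0.92, and *Neurod6*, 0.85) moved toward Amy after repeated cocaine, and 0 and 0 toward LH. Of 15 striatal genes, 3 moved toward LH (*Drd2*, *Rgs9* and *Rarb*, with interactions of -1.18, -0.53 and -1.0 on the log2 scale), as did the cholinergic genes *Slc5a7* (-1.58) and *Slc18a3* (-2.45). Of 26 oligodendrocyte, 26 IEG and 12 lateral hypothalamus genes, 0, 0 and 0 were called. The share called over all tested genes was 0.814%, at which most lists of such sizes would hold 0. The striatal list summed to 1226.0 to 1801.7 CPM in acute Amy and 965.8 to 1369.8 CPM in repeated Amy, and the cortical and piriform list to 1750.9 to 2082.8 and 2176.0 to 2535.6 CPM. Their part in the interaction was not tested. Acute and repeated mice were separate cohorts, so experience and cohort cannot be told apart.

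Without a block for the mouse, no gene passed for a dependence of the difference on time after cocaine (0 of 12041 by edgeR and 0 by DESeq2, with 516, or 4.29%, at an unadjusted p under 0.05). The lowest p was that of *Arc*, an IEG whose product acts at the postsynapse. Over acute and repeated mice together (n = 4 per structure and time), *Arc* in Amy was at 47.9 to 60.9 CPM at 0 hr, 123.8 to 156.6 CPM at 1 hr, 39.9 to 143.5 CPM at 2 hr and 45.7 to 69.6 CPM at 4 hr. In LH it was at 29.4 to 46, 36 to 41.3, 31.5 to 41.3 and 27.3 to 30.7 CPM at these times. Every 1 hr Amy library was above every 0 hr Amy library, and in LH the 0 hr and 1 hr ranges overlapped. Against 0 hr, the Amy minus LH difference in *Arc* was larger by 1.32 on the log2 scale at 1 hr, 0.73 at 2 hr and 0.35 at 4 hr (edgeR adjusted p = 0.0589). With the mouse as a block, since the Amy and LH libraries of a cohort carry the same mouse numbers, *Arc* passed (edgeR adjusted p = 0.000182) and no other gene did. Without the block this p passed when any 1 of 11 libraries was left out (0.000218 to 0.0457) and reached 0.7628 without another. In acute libraries alone *Arc* had an edgeR adjusted p of 0.5113, and in repeated libraries alone 0.6894. By DESeq2 over both, its adjusted p was 0.9997. With no filter on low counts 16 genes passed, and leaving out LH 0 hr replicate 2 of the acute mice gave 5. *Fos* had means of 7.61 and 25 CPM at 0 and 1 hr in Amy and 6.85 and 28.4 CPM in LH (edgeR adjusted p of the dependence = 0.999).

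Genes that mark LH were present in the Amy libraries at a fraction of their LH level, above their level in other structures of the series. The challenge runs also held limbic cortex (LCtx) and nucleus accumbens (NAc) libraries. *Hcrt* was at 4158.6 to 6557.5 CPM in 8 LH libraries and 191.2 to 563.4 CPM in 16 Amy libraries, but at 0.529 to 3.49 CPM in 14 LCtx and 0.329 to 3.88 CPM in 15 NAc libraries. These counts include a second library of 1 mouse for each structure, from the other run. The comparison of challenge mice left out those of Amy and LH. *Pmch* was at 6766.8 to 9949.2, 429.6 to 1071.1, 1.57 to 6.25 and 1.41 to 6.17 CPM in the same order. For both genes the lowest Amy library was far above the highest LCtx and NAc library.

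**Figure D5:**
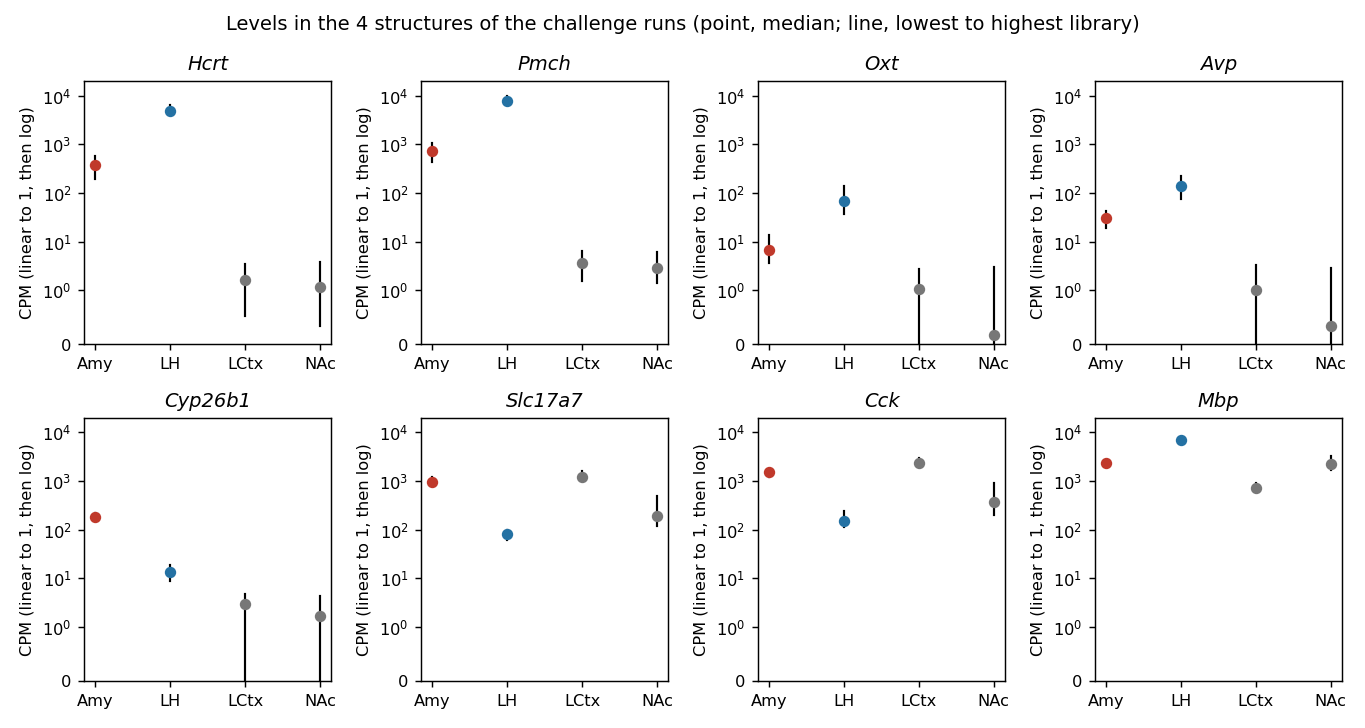
CPM of 8 genes in the 4 structures of the challenge runs (point, median; line, lowest to highest of 16 Amy, 8 LH, 14 LCtx and 15 NAc libraries), on an axis that is linear near 0 and logarithmic above. The median of *Hcrt* is 4897.0 CPM in LH, 371.5 CPM in Amy and 1.64 CPM in LCtx, and that of *Slc17a7* is 958.1 CPM in Amy and 1221.7 CPM in LCtx.

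There were 14 genes with at least 10 CPM in LH and less than 2% of that level in LCtx and in NAc, among them *Nkx2-4*, *Mup6*, *Hcrt*, *Foxb1*, *Parpbp*, *Pmch*, *Oxt*, *Ebf3*, *Pgr15l*, *Uncx*, *Otp*, *Avp* and *Gal*. Their Amy level was 4.48% to 28.3% of the LH level in the challenge runs, with a median of 9.36%, and the median was 7.96% in acute and 8.68% in repeated mice. The same rule for Amy gave 2 genes, *Cyp26b1* and *Pappa2*, with an LH level of 7.5% to 12.8% of the Amy level. *Cyp26b1* was at 8.92 to 18.4 CPM in LH, at most 4.76 CPM in LCtx and at most 4.4 CPM in NAc. The folds given above for genes found by this rule, such as *Hcrt*, *Pmch*, *Oxt*, *Ebf3* and *Cyp26b1*, are taken against such a level in the other structure. The source of that level was not tested.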

How the data were processed

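Bulk 3′ RNA-seq counts were deposited by the authors as 1 table of 19363 genes. Per the study's methods they aligned reads to GRCm38 with STAR, removed PCR duplicates by molecular identifier, counted reads per gene with HTSeq, left out shallow libraries and down-sampled very deep ones to 50%. Tool versions are not given in the sources used here. Counts were used as deposited, with TMM scaling and the filterByExpr filter (edgeR 4.0.16 in R 4.3.3), a quasi-likelihood fit with time as a covariate (time and run for challenge mice) and cell means for interactions. Calls needed an adjusted p under 0.05 and a 1.2-fold difference. Alternatives were other scalings, filters, DESeq2 1.42.0, thinning, 0 hr mice alone and leaving out each library. Named genes were the 15 per direction with the largest fold among called genes without overlap and with at least 10 CPM in the higher structure, the 5 per direction with the lowest p for an interaction, and list members. Some list members, such as receptors of named ligands, were chosen after their values were seen. The members, lists and tests were chosen with earlier results of these data known. Replicates are samples that the labels number separately, and p-values measure the spread between them. Amy and LH libraries with the same number in a cohort were read as 1 mouse from the sample names, and their deviations from the group means correlated by 0.0148 to 0.0750 over genes. The reported fits have no block for the mouse, and fits with it are an alternative. Totals of 2390783 to 8911089 counts per library limit the precision for low genes. Mitochondrial transcripts were not analysed here, and some named genes and list members are not reported here. The fits were tested on simulated data.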

Additional observations from a re-analysis of the deposited data

Results flagged for a closer look

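Of 152 groups of 8 libraries checked for the named genes, 9 held a library that stood apart by Dixon's criterion (5.92%), where chance alone gives about 1 group in 20. Among the acute LH libraries, 1 hr replicate 1 stood apart for 3 hypothalamic genes, with *Avp* at 1525.8 CPM (the others at 219.8 to 349.7), *Oxt* at 830.4 CPM (83.9 to 222.6) and *Lhx5* at 21.7 CPM (9.52 to 12.4). *Parpbp* was at 92.6 CPM in acute LH 0 hr replicate 1 (42.5 to 65.6 in the others). Among acute Amy libraries, *Lhx5* was at 4.3 CPM in 2 hr replicate 2 (0.349 to 1.68) and *Lmo4* was lowest in 4 hr replicate 2, at 291.9 CPM (347.7 to 389.4). Among repeated libraries, *Drd2* was at 30.8 CPM in Amy 2 hr replicate 1 (9.81 to 18.2), *Slc17a7* at 96.1 CPM in LH 1 hr replicate 1 (66.2 to 77.4) and *Zcchc12* at 341.6 CPM in Amy 0 hr replicate 1 (268.8 to 296.0).

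The Amy minus LH difference itself differed between acute and repeated mice for the 10 genes named for that interaction. On the log2 scale it was larger after repeated cocaine by 0.68 for *Cck*, 0.67 for *Slc17a7*, 0.536 for *Nrn1*, 0.532 for *Lmo4* and 0.529 for *Enc1*. The change was -1.18 for *Drd2*, -0.876 for *Tac1*, -0.719 for *Syt2*, -0.353 for *Zcchc12* and -2.16 for *Ctxn3*.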

How the results depend on the processing

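Of 422 recomputed counts of called genes, 403 stayed within 1.5 times the reported count. In the 0 hr mice alone, with 2 libraries per structure, acute mice gave 2988 called genes (1604 higher in Amy, 1384 in LH) and repeated mice 3126 (1647 and 1479), from fewer samples. With 1 library left out, acute calls ran from 4876 to 4969, repeated from 5132 to 5224, challenge from 5518 to 5660 and the interaction with experience from 68 to 127. The interaction with time gave 0 to 5 genes with 1 library left out, 16 with no filter on low counts and 1 with the replicate block, and the cause was not tested. The 1830 recomputed values of named genes other than *Arc* kept their direction and their side of the threshold, and DESeq2 gave no adjusted p for *Drd2* and *Ctxn3* in the interaction with experience. These genes were picked for large folds without overlap or for the lowest p, so a change of call was unlikely from the start. Named genes were not recomputed in challenge mice, nor *Adora2a* in repeated mice. Of 1850 recomputed list counts, 47 moved by over 1.5 times.

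With the mouse as a replicate block, 4966 acute genes (2499 higher in Amy and 2467 in LH), 5223 repeated genes and 125 genes of the interaction with experience were called, and the time interaction gained *Arc* (edgeR adjusted p = 0.000182). The block changed the call of no named gene but *Arc*, and among list counts 1 oligodendrocyte precursor gene and 1 ependymal gene became higher in LH. In challenge mice a fit with this block, chosen after seeing the data, used the 7 mice with an Amy and an LH library in the same run and called 5409 genes (2723 higher in Amy and 2686 in LH).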

Other observations

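Channel and adhesion families were divided between the structures in acute mice, where 20.7% of all tested genes were higher in Amy and 20.6% in LH. Of 31 voltage-gated sodium, calcium and HCN channel genes, 15 were higher in Amy and 7 in LH. The pacemaker channels *Hcn2* (log2 fold change -1.11) and *Hcn3* (-0.81) were higher in LH. The list member *Cacng3* (log2 fold change 1.31) and the calcium channel subunits *Cacnb3* (1.08) and *Cacna1e* (1.07) were higher in Amy, and the sodium channel *Scn9a* (-1.22) in LH.

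Of 14 cadherin genes, which encode cell adhesion molecules, 6 were higher in Amy, led by *Cdh9* (log2 fold change 2.06) and *Cdh4* (1.17), and 3 in LH, led by *Cdh12* (-1.73) and *Cdh19* (-1.10). *Cdh9* was at 29.8 to 48.1 CPM in Amy and 6.25 to 13.3 CPM in LH, and *Cdh12* at 0.697 to 2.75 and 3.06 to 7.6 CPM. Of 17 ephrins and Eph receptors, which guide axons by contact, 8 were higher in Amy, led by *Epha7* (1.29) and *Efnb2* (1.10), and 6 in LH, led by *Ephb2* (-0.57) and *Ephb1* (-0.57). In the 0 hr mice alone, 2 cadherins were called higher in Amy and 2 ephrins and Eph receptors higher in LH.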
